A study of Mus musculus with 33 samples.

Results

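Sugct, Yae1d1, Zkscan4, Zkscan8, H3c11, H1f2, Slc17a3, Slc17a1, Agtr1a and Jarid2 lie on mouse chromosome 13, the chromosome that carries E2f3, and were selected on measured shifts in the mutant livers described here. They are 10 of the 18193 genes measured and were read by 19 of the 45037 probe sets tested. Sugct had 2 probe sets, Yae1d1, Zkscan8, H1f2 and Jarid2 had 3 each, and the other 5 genes had 1 each. A further 2 probe sets name a member together with other genes and were left out. Because measured values chose the genes, their levels and differences are given as a description, without a test. The choice had no stated threshold, so no gene just outside it can be named.

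The arrays measured RNA from livers of mice at 12 months of age, of a mixed strain background that the labels give as FVB/NT, 129S1/Svlmj and C57BL/6NT. The 4 groups were wild-type liver (wt, n = 7), E2f3a knock-out liver (3aKO, n = 5), E2f1 knock-in (1KI, n = 5) and E2f3b knock-in (3bKI, n = 4). The wt and 3aKO livers were labelled normal, and the 1KI and 3bKI samples were labelled as hepatocellular carcinomas that arose without a given inducer. Tumour and knock-in genotype therefore coincide and cannot be told apart. The labels do not say where the inserted sequences lie, whether a knock-in mouse still carried an intact E2f3a, or whether samples of a group came from separate litters. The authors normalized the arrays in 2 runs. Normalization 1 held wt, 3aKO and 1KI, and normalization 2 held the same wt and 3aKO arrays with 3bKI. Values of the 2 runs are kept apart, and the tumour groups were not set against each other.

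E2F proteins are transcription factors of the cell cycle, and E2f3a and E2f3b are products of a single gene that start from different promoters. As background, knock-in alleles of this kind are known to place the other E2f sequence at the E2f3a start. An allele made in stem cells of a given strain carries the DNA around it along when it is bred into a mixed background, so mutants can share strain-specific versions of nearby genes. A strain difference under the probes of a probe set can alter its signal without a difference in RNA level. Replication-dependent histone genes, SCAN-domain zinc finger genes and transporters of the SLC17 family form clusters on this chromosome.

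The order along the chromosome was counted in measured genes from E2f3. Sugct lay 89 measured genes before E2f3, Yae1d1 85, Zkscan4 65, Zkscan8 63, H3c11 62, H1f2 46, Slc17a3 44 and Slc17a1 43. Agtr1a lay 2 measured genes after E2f3, and Jarid2 lay 88 after it.

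The RefSeq promoter table (GRCm38.p6) held 11 windows for 9 of the 10 genes, and Agtr1a had none. The 250 bases before the start are shown for the 3 genes with the widest shifts in 3aKO liver and for the linker histone H1f2, the histone gene with the higher tumour levels. Capitals mark CCAAT in the Yae1d1 window and the H1 box AAACACA in the H1f2 window, and the other windows shown held no match to a motif searched.
Sugct (chr13:17694766-17695015, minus strand): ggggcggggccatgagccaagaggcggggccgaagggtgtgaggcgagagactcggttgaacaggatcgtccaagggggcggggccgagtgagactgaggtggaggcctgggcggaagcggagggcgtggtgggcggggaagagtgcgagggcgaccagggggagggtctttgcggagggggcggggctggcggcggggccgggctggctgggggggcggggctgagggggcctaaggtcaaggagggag
Yae1d1 (chr13:17993352-17993601, minus strand): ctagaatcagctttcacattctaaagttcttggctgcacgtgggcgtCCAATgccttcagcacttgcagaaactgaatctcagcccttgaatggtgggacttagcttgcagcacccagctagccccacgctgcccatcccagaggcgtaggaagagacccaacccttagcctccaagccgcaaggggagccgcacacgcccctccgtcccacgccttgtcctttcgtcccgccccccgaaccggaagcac
Zkscan8 (chr13:21531115-21531364, minus strand): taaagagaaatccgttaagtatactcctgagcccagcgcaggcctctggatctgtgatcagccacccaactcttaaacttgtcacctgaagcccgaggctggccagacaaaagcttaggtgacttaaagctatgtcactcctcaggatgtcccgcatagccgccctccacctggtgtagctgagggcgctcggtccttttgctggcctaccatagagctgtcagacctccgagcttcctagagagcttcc
H1f2 (chr13:23738557-23738806, plus strand): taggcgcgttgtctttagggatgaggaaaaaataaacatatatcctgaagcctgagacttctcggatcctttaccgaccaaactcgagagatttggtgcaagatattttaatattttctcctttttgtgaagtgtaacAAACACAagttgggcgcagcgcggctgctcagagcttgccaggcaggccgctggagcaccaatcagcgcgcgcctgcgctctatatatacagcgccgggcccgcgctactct

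Each window was searched on both strands, and matches could overlap. The E2F site was searched as TTTGGCGC, TTTCCCGC, TTTCGCGC or TTTGCCGC, which 1.86% of 32851 promoter windows of this length held. It matched 0 of the 11 member windows and 1 of the windows of E2f3. The H1 box AAACACA, a sequence of linker histone promoters, was held by 6.25% of all windows and by those of H1f2 and Slc17a3. CCAAT was held by 33.8% of all windows and by those of Yae1d1, H3c11, H1f2 and 1 of Jarid2. TATAAA was held by 12.4% of all windows and by those of H3c11 and the other Jarid2 start. The windows of Sugct, Zkscan8, Zkscan4 and Slc17a1 held no match to any motif searched. A match is a string of letters and was not tested as a binding site.

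Array medians were level within a run, at 5.48 to 5.53 log2 in normalization 1 and 5.34 to 5.43 in normalization 2. On the log2 scale, the 3' beta-actin control exceeded the 5' one, a gap that widens as RNA degrades, by 0.63 to 1.38 in wt, 1.09 to 1.35 in 3aKO and 0.91 to 1.28 in 1KI. It was 0.70 to 0.87 in 3bKI, where wt spanned 0.65 to 1.37 and 3aKO 1.06 to 1.35. Xist, the RNA of the inactive X chromosome, was above 10 log2 in 3 of 7 wt, 3 of 5 3aKO, 2 of 5 1KI and 3 of 4 3bKI arrays. The mean log2 level of 11 hepatocyte markers had a median over arrays of 14.15 in wt, 14.16 in 3aKO and 14.16 in 1KI, far above the array medians. In normalization 2 it was 14.12 in wt, 14.13 in 3aKO and 13.89 in 3bKI, whose 4 arrays spanned 13.82 to 13.96 against 13.96 to 14.20 in wt. The 2 probe sets of E2f3 differed between 3aKO and wt by -0.19 ± 0.11 and -0.07 ± 0.09 log2 (limma's adjusted p = 0.699 and 0.88), where the error after a difference is the moderated standard error (SE) throughout. The annotation does not say whether either probe set lies in the deleted part, so this checks no label. In 1KI the same probe sets stood 0.57 ± 0.13 and 0.27 ± 0.09 above wt (adjusted p = 0.088 and 0.166). In 3bKI they stood 0.10 ± 0.12 and 0.40 ± 0.11 above wt (adjusted p = 0.688 and 0.0854), and the 4 arrays of the latter, 1427462_at, lay above every wt array at 5.52 to 5.65 against 4.89 to 5.43. Against 3aKO it rose in 3bKI by 0.43 ± 0.10 (adjusted p = 0.0303). Of 13 measured genes of the E2F and pocket protein family, 0 were called in 3aKO or 1KI against wt, and in 3bKI the pocket protein gene Rbl2 fell by 0.77 ± 0.13 (adjusted p = 0.0222).

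Counts of member probe sets stand beside the share of all 45037 probe sets that met the same criterion, and nothing is read from them, since these contrasts chose the genes. At an adjusted p under 0.05 (limma, Benjamini-Hochberg over all probe sets), 2 of 19 were called in 3aKO against wt in normalization 1, against 0.00444% of all probe sets, and 3 of 19 in normalization 2, against 0.00666%. These were all the called probe sets of the array in that comparison, 2 and 3. The 2 calls of normalization 1 dropped to 0 without wt replicate 3 or 6 or 3aKO replicate 1, 2, 4 or 5. In 1KI against wt 4 of 19 were called, against 0.16%, and in 3bKI against wt 5 of 19, against 1.18%. Against 3aKO liver, 0 of 19 were called in 1KI, against 0.0244%, and 5 of 19 in 3bKI, against 7.63%. These counts also rest on single arrays. The 3 calls of 3aKO in normalization 2 dropped to 0 without 3aKO replicate 1, 2, 4 or 5, and the 4 of 1KI against wt to 2 without wt replicate 4. The 5 of 3bKI against wt dropped to 3 without wt replicate 1, 2, 3, 4 or 5 and to 2 without 3bKI replicate 3 or 4. Against 3aKO the 5 of 3bKI dropped to 1 without 3aKO replicate 4, to 2 without 3aKO replicate 2 or 5 or 3bKI replicate 3, and to 3 without 3aKO replicate 3 or 3bKI replicate 4. The 0 of 1KI against 3aKO became 1 without 1KI replicate 1. Calls over all probe sets moved in the same settings. They fell from 72 to 12 in 1KI against wt and from 530 to between 87 and 227 in 3bKI against wt. In 3bKI against 3aKO they fell from 3435 to between 1246 and 2016, and in 1KI against 3aKO they rose from 11 to 29. Whether members lost calls beyond this was not tested.

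Groups that did not overlap, every array of one lying beyond every array of the other, were also counted. In 3aKO against wt this held for 5 of 19 member probe sets in normalization 1, against 0.54% of all, and for 4 of 19 in normalization 2, against 0.524%. It held for 6 of 19 in 1KI against wt, against 1.74%, and for 6 of 19 in 3bKI against wt, against 3.64%. Against 3aKO it held for 1 of 19 in 1KI, against 2.91%, and for 8 of 19 in 3bKI, against 13.1%. The comparisons share the wt or the 3aKO arrays, so their values are set side by side and not counted as repeats of each other.

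Sugct, a mitochondrial transferase that hands coenzyme A to glutarate in lysine breakdown, had the widest shift of the 10 genes. Its probe set 1421422_at read 6.15 to 8.41 log2 in wt with a median of 7.27 (normalization 1). The 5 3aKO livers read 4.31, 4.48, 4.55, 4.82 and 4.67, and the 5 1KI tumours read 4.31, 4.88, 4.46, 4.10 and 4.57. All 10 mutant arrays lay below all 7 wt arrays, and the 3aKO and 1KI ranges overlapped. Means were 7.42 ± 0.81 in wt (SD, n = 7), 4.57 ± 0.19 in 3aKO (SD, n = 5) and 4.46 ± 0.29 in 1KI (SD, n = 5). The differences from wt were -2.86 ± 0.32 in 3aKO and -2.96 ± 0.34 in 1KI. Both mutant means lay below the array medians of 5.48 to 5.53 and were not shown to lie above background, so no fold is given. Whether a floor of the signal brought the mutant groups together was not tested.

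In normalization 2 the Sugct probe set 1421422_at read 5.88 to 8.15 in wt, and 4.06, 3.98, 4.18, 4.28 and 4.44 in 3aKO. The 4 3bKI tumours read 5.77, 4.34, 3.78 and 3.97. They too lay below every wt array, replicate 1 only narrowly, and overlapped with 3aKO. The difference of 3bKI from wt was -2.64 ± 0.46, and it was -3.07 without replicate 1. No fold is given here either, since the 3bKI mean of 4.47 lay below the array medians. 3aKO differed from wt by -2.91 ± 0.33 in this run. Set directly against 3aKO, 1KI differed by -0.10 ± 0.14 and 3bKI by 0.28 ± 0.34.

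The other Sugct probe set, 1442191_at, had another pattern. It read 6.05 to 6.69 in wt, 6.19, 6.45, 6.18, 6.80 and 6.45 in 3aKO, and 6.11, 6.30, 5.15, 4.60 and 5.91 in 1KI. In 3bKI it read 5.56, 4.80, 5.79 and 5.44, below the wt range of 5.96 to 6.59 in that run. The 3aKO livers thus overlapped with wt on a probe set of the same gene whose other probe set separated them fully. Against wt the differences were 0.07 ± 0.12 in 3aKO, -0.73 ± 0.25 in 1KI and -0.84 ± 0.16 in 3bKI. Replicates 3 and 4 of 1KI, which stood apart in an earlier analysis of these arrays, held its lowest values, and without them the 1KI difference was -0.24 ± 0.13. A lower RNA level per cell and fewer cells that make the RNA cannot be told apart in bulk tissue, here or below.

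Sugct acts late in the breakdown of lysine and tryptophan through glutarate. Of 16 measured genes on a list of that pathway, each read by its brightest probe set, 13 lay above 0 in 3aKO against wt, 1 in 1KI against wt and 0 in 3bKI against wt. The medians were 0.08, -0.29 and -0.37 log2, against 0.00, -0.03 and 0.01 over all genes. No gene of the list was called in 3aKO or 1KI against wt. In 3bKI against wt 2 fell, Sugct through 1442191_at and Aass, which starts lysine breakdown, by 0.64 ± 0.13 (limma's adjusted p = 0.0435). In 3bKI against 3aKO 7 of 16 fell, among them Gcdh, the glutaryl-CoA dehydrogenase, by 0.77 ± 0.19 (adjusted p = 0.0374) and Dhtkd1 by 0.81 ± 0.19 (adjusted p = 0.0335). That comparison called 7.63% of all probe sets, 1041 higher and 2394 lower. With 1 probe set per gene, adjusted over those genes alone, it called 1671 of 18193. Whether its calls on this or a later list exceed these shares was not tested. The list reads Sugct by 1442191_at, so 1421422_at is not among its values. Calls of members on this and the later lists fall on genes chosen for their shifts, and nothing is read from them. Only 2 and 3 of 45037 probe sets were called in 3aKO against wt in the 2 runs. The lack of a list call there therefore sets up no contrast with 1421422_at.

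Yae1d1 encodes an adaptor that helps to load iron-sulfur clusters onto a ribosome-recycling protein. Its probe set 1419660_at was higher in every mutant array than in any wt array. It read 6.67 to 8.14 in wt with a median of 7.02, 8.49, 8.80, 8.80, 8.49 and 8.42 in 3aKO, and 8.73, 8.81, 8.58, 8.54 and 8.60 in 1KI. In normalization 2 it read 6.77 to 8.04 in wt, 8.56, 8.82, 8.69, 8.37 and 8.30 in 3aKO, and 8.21, 8.65, 8.56 and 8.73 in 3bKI. The gap to wt was set by wt replicate 2, at 8.14, since the other 6 wt arrays reached only 7.24. Relative to wt the differences were 1.45 ± 0.20 in 3aKO (2.72-fold), 1.50 ± 0.20 in 1KI (2.82-fold) and 1.42 ± 0.21 in 3bKI (2.68-fold). Against 3aKO, the tumours differed by 0.05 ± 0.10 in 1KI and -0.01 ± 0.14 in 3bKI.

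The 3 probe sets of Yae1d1 did not move alike. 1449557_at read 7.15 to 7.59 in 3aKO, above the wt range of 6.32 to 7.02, while 1KI (6.92 to 7.42) overlapped with wt. Its differences from wt were 0.73 ± 0.13 in 3aKO, 0.55 ± 0.13 in 1KI and 0.29 ± 0.15 in 3bKI, the last from arrays of 6.39, 6.71, 6.81 and 7.09 in normalization 2. 1419661_at pointed the other way, with differences from wt of -0.32 ± 0.10 in 3aKO, -0.37 ± 0.10 in 1KI and -0.72 ± 0.12 in 3bKI. On that probe set the 3bKI arrays (5.57, 5.42, 5.25 and 5.51, normalization 2) lay below every wt array, and those of 3aKO and 1KI overlapped with wt. So 2 probe sets of Yae1d1 stood higher and 1 stood lower in all 3 mutant groups. Of 10 measured genes on a list of YAE1 and cytosolic iron-sulfur assembly, Yae1d1 alone was called against wt, in 1KI, in 3bKI and, in normalization 2 only, in 3aKO. Yae1d1 was chosen for its shift in these arrays, so its call is no result about the list. Against 3aKO 2 genes fell in 3bKI, Mms19 by 0.48 ± 0.10 (limma's adjusted p = 0.0239) and Ciao3 by 0.30 ± 0.08 (adjusted p = 0.0457), both of the iron-sulfur targeting machinery. Over all probe sets 7.63% were called in that comparison.

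Zkscan8 and Zkscan4 encode zinc finger proteins with a SCAN domain, which pairs such proteins, and lie close to each other on the chromosome. The Zkscan8 probe set 1457756_at read 3.93 to 4.63 in wt with a median of 4.16. The 3aKO livers read 5.32, 5.17, 5.09, 5.33 and 5.28, and the 1KI tumours read 5.33, 5.06, 5.00, 5.15 and 5.34. Both groups lay above every wt array and overlapped with each other. Differences from wt came to 1.02 ± 0.13 in 3aKO and 0.96 ± 0.13 in 1KI. The wt mean was higher than that of only 28.7% of probe sets and was not shown to lie above background, so no fold is given.

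The 3bKI tumours did not share this level of Zkscan8. In normalization 2 1457756_at read 3.53 to 4.28 in wt, 5.08, 4.96, 5.01, 5.12 and 5.02 in 3aKO, and 4.55, 4.34, 4.47 and 4.12 in 3bKI. The 3bKI arrays overlapped with wt and lay below all 5 3aKO arrays. The difference of 3bKI was 0.37 ± 0.14 from wt and -0.67 ± 0.10 from 3aKO, where that of 3aKO from wt was 1.04 ± 0.12. The other probe sets of Zkscan8 gave smaller differences from wt in 3aKO and 1KI, and all of their mutant groups overlapped with wt. 1455778_at differed from wt by 0.14 ± 0.13 in 3aKO, 0.02 ± 0.14 in 1KI and -0.42 ± 0.17 in 3bKI. On it the 3bKI arrays read 7.34, 6.66, 7.23 and 7.16, below the 3aKO range of 7.54 to 7.69. 1430334_at differed by 0.19 ± 0.08, 0.37 ± 0.11 and 0.08 ± 0.09. Only 1457756_at thus set 3aKO and 1KI apart from wt.

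Zkscan4 was read by a single probe set, 1435993_at, at 5.93 to 6.57 in wt with a median of 6.18. It read 6.21, 5.52, 6.22, 5.70 and 6.17 in 3aKO and 5.81, 5.49, 5.21, 5.39 and 5.89 in 1KI. The 1KI arrays lay below every wt array and the 3aKO arrays overlapped with both. In 3bKI (normalization 2) it read 6.10, 5.66, 5.53 and 5.95, 2 of them inside the wt range of 5.79 to 6.42 and 2 below it. Against wt, group means differed by -0.28 ± 0.16 in 3aKO, -0.68 ± 0.15 in 1KI and -0.30 ± 0.16 in 3bKI. The 1KI value was -0.51 ± 0.17 without replicates 3 and 4.

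**Figure D1:**
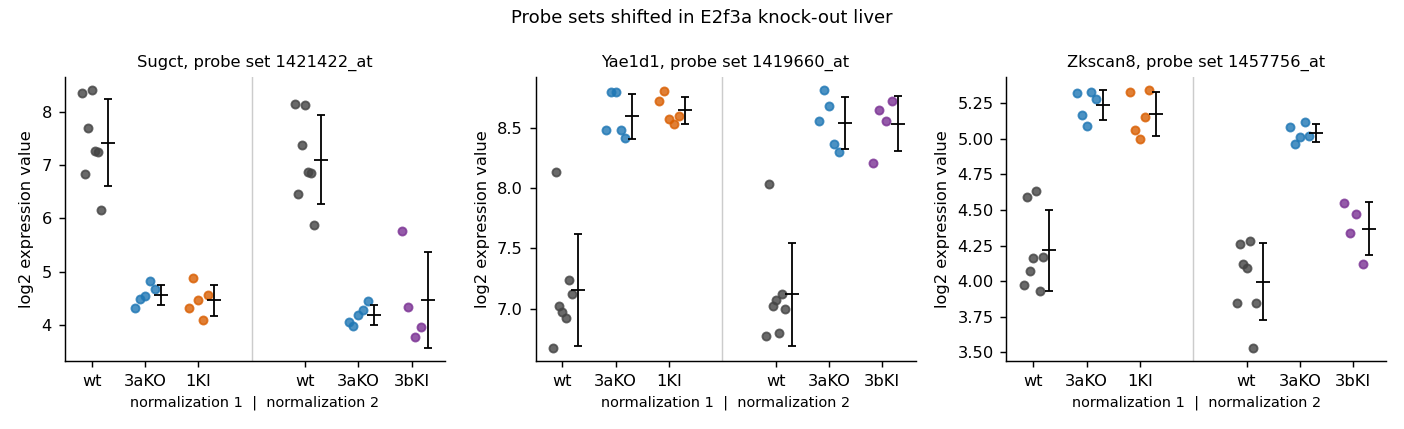
Log2 expression value of Sugct 1421422_at, Yae1d1 1419660_at and Zkscan8 1457756_at in every array, with points as arrays, horizontal ticks as group means and bars as SD; normalization 1 is left and normalization 2 right of each panel's line. The mutant arrays lie apart from wt in all panels except 3bKI for Zkscan8, which reads 4.12 to 4.55 against 3.53 to 4.28 in wt.

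Of 20 measured SCAN zinc finger genes, 10 lay above 0 in 3aKO against wt, 5 in 1KI and 6 in 3bKI, with medians of 0.01, -0.07 and -0.14. None was called in these comparisons by brightest probe set. Set against 3aKO, in the 3bKI tumours 4 fell and 1 rose, where 7.63% of all probe sets were called. Those that fell were Zscan29 by 0.61 ± 0.09 (limma's adjusted p = 0.00986), Zkscan1 by 0.52 ± 0.12, Zkscan14 by 0.57 ± 0.14 and Zkscan8 through 1455778_at, and Zkscan16 rose by 0.29 ± 0.07 (adjusted p = 0.043).

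H1f2 encodes a linker histone, which binds DNA between nucleosomes, and H3c11 an H3 core histone. Both belong to the replication-dependent histones made in S phase. Histone genes of this cluster are near-identical copies, so a probe set can take signal from a neighbour, and this was not tested. The H1f2 probe set 1416101_a_at read 9.67 to 10.81 in wt with a median of 10.29, and 11.16, 10.36, 10.96, 10.16 and 11.27 in 3aKO. It read 11.08, 11.29, 11.59, 11.60 and 10.93 in 1KI, and in normalization 2 it read 11.40, 11.03, 11.13 and 10.99 in 3bKI, where wt reached 10.71. Both tumour groups lay above every wt array, and 3aKO spanned the range from the middle of wt to the tumours. The differences from wt were 0.45 ± 0.24 in 3aKO, 0.97 ± 0.21 in 1KI (1.95-fold) and 0.89 ± 0.21 in 3bKI (1.85-fold). 1436994_a_at gave 0.35 ± 0.27, 0.88 ± 0.28 and 0.78 ± 0.27 with overlap throughout. 1438204_at differed from wt by at most 0.13, with overlap throughout.

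H3c11 had a lower mean than wt in 3aKO and higher means in the tumours, though in 1KI by hardly more than its SE. Its probe set 1443475_at read 4.73 to 5.11 in wt. It read 4.88, 4.54, 4.42, 4.24 and 4.46 in 3aKO and 5.00, 5.23, 4.92, 4.64 and 5.21 in 1KI. In normalization 2 it read 4.71, 4.39, 4.37, 4.07 and 4.26 in 3aKO and 4.83, 4.75, 5.31 and 4.96 in 3bKI. Every 3bKI array lay above every 3aKO array, and all mutant groups overlapped with wt. Against wt the differences were -0.37 ± 0.10 in 3aKO, 0.12 ± 0.11 in 1KI and 0.27 ± 0.12 in 3bKI. The difference of 3bKI from 3aKO was 0.60 ± 0.14. The wt mean was higher than that of only 39.5% of probe sets and was not shown to lie above background.

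Of 51 replication-dependent histones listed, 8 were measured under a symbol of their own, 4 of them above 0 in 3aKO, 6 in 1KI and 7 in 3bKI against wt, with medians of -0.02, 0.12 and 0.24. None was called against wt. In 3bKI against 3aKO, where 7.63% of all probe sets were called, H3c11 was called higher, and H2bc21 fell by 0.77 ± 0.19 (limma's adjusted p = 0.0358). The list of S phase and mitosis genes stood above 0 for 23 of 29 genes in 3aKO, 27 in 1KI and 26 in 3bKI, with medians of 0.13, 0.68 and 0.58, and none was called. Cdk1, the kinase of mitotic entry, differed from wt by 0.48 ± 0.16 in 3aKO, 1.26 ± 0.25 in 1KI and 1.55 ± 0.48 in 3bKI, at adjusted p of 0.629, 0.0629 and 0.118. Set against 3aKO, in the 3bKI tumours Ccne1, the cyclin of the G1/S step, rose by 0.52 ± 0.11 (adjusted p = 0.0222). The mean log2 level of the list was 5.48 to 6.13 in wt, 5.69 to 6.09 in 3aKO and 5.89 to 6.82 in 1KI, and in normalization 2 5.33 to 5.95 in wt and 5.61 to 7.31 in 3bKI. Its part in the histone values was not tested.

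Jarid2 recruits Polycomb repressive complex 2, which marks silenced chromatin, to its targets. Its probe set 1450710_at read 6.20 to 6.52 in wt with a median of 6.32. It read 6.56, 6.55, 6.74, 6.56 and 6.68 in 3aKO and 6.82, 6.60, 6.83, 6.96 and 6.94 in 1KI. Both groups lay above wt in normalization 1, the 3aKO arrays by a narrow gap that closed in normalization 2. There the 3bKI arrays read 5.59, 6.16, 5.98 and 6.03, within or below the wt range of 6.01 to 6.24 and below the 3aKO arrays at 6.25, 6.23, 6.52, 6.38 and 6.44. Relative to wt the differences were 0.26 ± 0.07 in 3aKO, 0.48 ± 0.08 in 1KI and -0.18 ± 0.10 in 3bKI. 1422698_s_at gave 0.27 ± 0.09, 0.32 ± 0.08 and -0.07 ± 0.09, and 1422697_s_at gave 0.12, 0.23 and -0.05, with all groups overlapping. All 3 probe sets of Jarid2 thus had higher means than wt in 3aKO and 1KI, and in 3bKI none did. Of the 11 genes of the complex and its partners listed, 7 lay above 0 in 3aKO, 9 in 1KI and 6 in 3bKI, with medians of 0.06, 0.14 and 0.01, and none was called in these or in the tumours against 3aKO. Ezh2, the methyltransferase of the complex, differed from wt by 0.28 ± 0.13 in 3aKO (limma's adjusted p = 0.663) and 0.38 ± 0.17 in 3bKI (adjusted p = 0.24).

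Slc17a1 and Slc17a3 encode membrane transporters of phosphate and organic anions such as urate, active in liver and kidney. Slc17a1 had lower means in both tumour groups than in wt, with overlap, and a mean near that of wt in normal 3aKO liver. Its probe set 1417280_at read 7.70 to 9.02 in wt with a median of 8.63, and 8.58, 8.27, 8.43, 8.76 and 8.91 in 3aKO. The 1KI tumours read 8.01, 7.24, 6.88, 7.40 and 7.31, all below the 3aKO arrays, and 4 of 5 below wt. In normalization 2 the 3bKI tumours read 7.35, 7.81, 7.35 and 8.06, below the 3aKO range of 8.18 to 8.83 and overlapping with the wt range of 7.63 to 8.93. Differences from wt came to 0.15 ± 0.22 in 3aKO, -1.07 ± 0.24 in 1KI (2.10-fold lower) and -0.71 ± 0.25 in 3bKI (1.63-fold lower). Against 3aKO they were -1.22 ± 0.19 in 1KI and -0.87 ± 0.17 in 3bKI.

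Slc17a3 differed less. Its probe set 1418923_at read 10.81 to 11.38 in wt, 10.73, 10.80, 10.94, 10.86 and 10.98 in 3aKO and 10.67, 11.05, 11.37, 10.78 and 10.67 in 1KI. In normalization 2 it read 10.72 to 11.31 in wt, 10.65 to 10.89 in 3aKO, and 10.41, 10.47, 10.60 and 10.57 in 3bKI. The 3bKI arrays lay below every wt and every 3aKO array, and the other groups overlapped. Against wt, group means differed by -0.23 ± 0.09 in 3aKO, -0.19 ± 0.13 in 1KI and -0.50 ± 0.10 in 3bKI.

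Of 7 measured SLC17 genes, 4 lay above 0 in 3aKO, 3 in 1KI and 3 in 3bKI against wt, with medians of 0.01, -0.17 and -0.02. The call against wt was Slc17a3 in 3bKI. In 3bKI against 3aKO Slc17a1 was called, and Slc17a2, their neighbour in the cluster, fell by 0.83 ± 0.22 on its brightest probe set (limma's adjusted p = 0.0446). Among the 11 hepatocyte markers none was called against wt in any group, with medians of -0.05 in 1KI and -0.11 in 3bKI. Set against 3aKO, in the 3bKI tumours 2 fell, Apob by 1.24 ± 0.12 (adjusted p = 0.00161) and Cps1 by 0.43 ± 0.09 (adjusted p = 0.0216). Over all probe sets 7.63% were called there. The mean log2 level of 7 kidney proximal tubule markers was 5.25 to 5.43 in wt and 5.12 to 5.27 in 1KI, near the median probe set. The part of hepatocyte content in the transporter values was not tested.

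Agtr1a, the main angiotensin II receptor of liver, lay closest to E2f3 and had its highest mean in 3aKO. Its probe set 1436739_at read 10.28 to 10.94 in wt with a median of 10.48, 11.55, 10.88, 11.07, 10.92 and 11.20 in 3aKO, and 10.94, 10.87, 10.68, 10.92 and 10.60 in 1KI. In normalization 2 it read 10.20 to 10.86 in wt, 10.78 to 11.44 in 3aKO, and 11.03, 10.71, 10.79 and 10.84 in 3bKI. All groups overlapped. The differences from wt were 0.57 ± 0.14 in 3aKO (1.48-fold), 0.24 ± 0.12 in 1KI and 0.37 ± 0.13 in 3bKI. Of 13 measured renin-angiotensin genes, 6 lay above 0 in 3aKO, 7 in 1KI and 8 in 3bKI, with medians of -0.02, 0.05 and 0.07 and no call against wt. In 3bKI against 3aKO 2 rose, the angiotensin-trimming peptidase Anpep by 0.76 ± 0.18 (limma's adjusted p = 0.0314) and the chymase Cma1 by 0.39 ± 0.10 (adjusted p = 0.0461), and the peptidase Mme fell by 0.91 ± 0.17 (adjusted p = 0.0175). Over all probe sets 7.63% were called there.

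**Figure D2:**
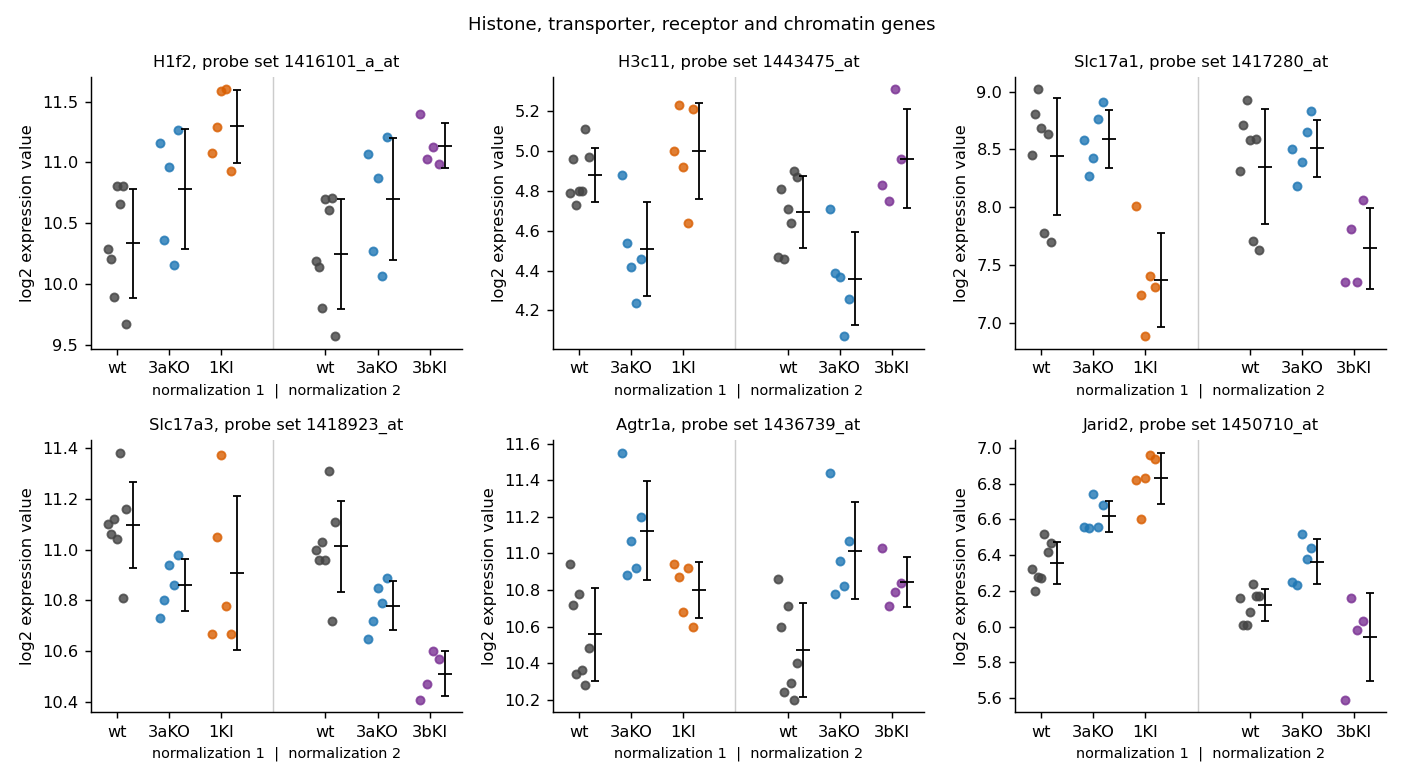
Log2 expression value per array of 1 probe set each of H1f2, H3c11, Slc17a1, Slc17a3, Agtr1a and Jarid2, with points as arrays, ticks as group means and bars as SD, and the 2 normalizations side by side. H1f2 is higher in both tumour groups than in wt, Slc17a1 is lower in both than in 3aKO, and Jarid2 lies above wt in 1KI (6.60 to 6.96 against 6.20 to 6.52, normalization 1) while 3bKI overlaps with wt (5.59 to 6.16 against 6.01 to 6.24, normalization 2).

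Set side by side, the differences from wt fell into several patterns. Sugct 1421422_at and Yae1d1 1419660_at lay off wt without overlap and in the same direction in 3aKO, 1KI and 3bKI, each in its own run. These differences share the 7 wt arrays. Zkscan8 1457756_at and Jarid2 1450710_at stood off wt in 3aKO and 1KI, Jarid2 in 3aKO only in normalization 1, and their 3bKI arrays overlapped with wt. Slc17a1 1417280_at stood lower in both tumour groups only by mean, while H1f2 1416101_a_at separated both from wt and also had a higher mean in 3aKO. Sugct 1442191_at, Yae1d1 1419661_at and Slc17a3 separated 3bKI alone from wt, and Zkscan4 separated 1KI alone. Yae1d1 1449557_at separated 3aKO alone, in both runs. The 3aKO and 1KI arrays overlapped for 18 of the 19 probe sets, and the 3aKO and 3bKI arrays for 11. Over all probe sets, 2.91% and 13.1% did not overlap in these comparisons. The count of 18 is near that share, and nothing is read from either count. Whether DNA linked to the altered E2f3 locus moves with any of these values was not tested, since genotypes along the chromosome were not analysed here.

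**Figure D3:**
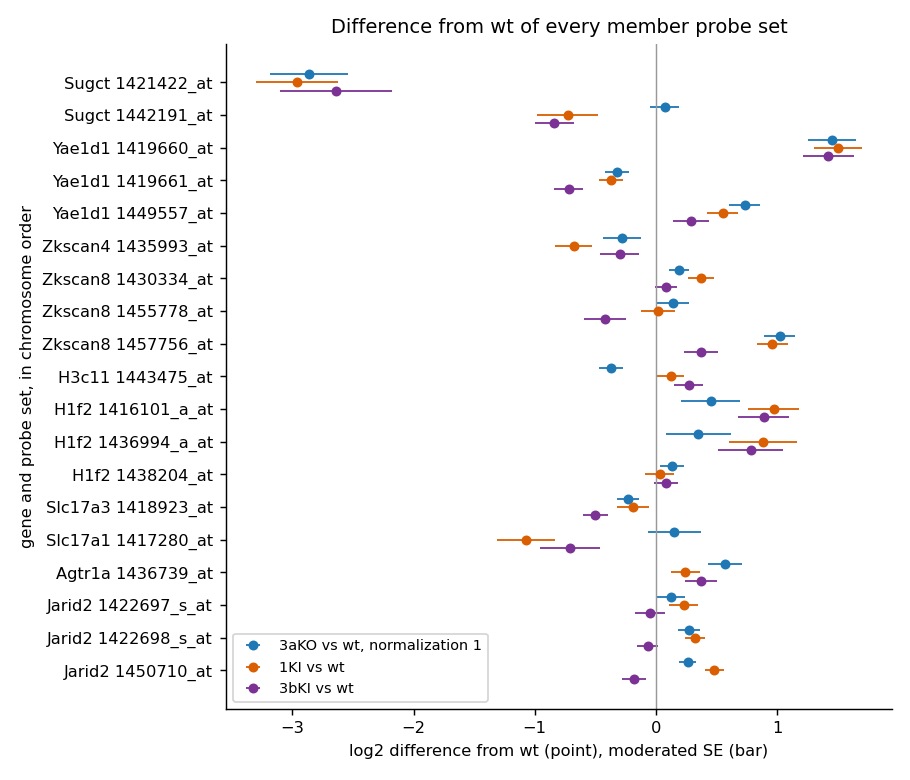
Difference from wt in log2 units (points) with its moderated SE (bars) for every probe set of the 10 genes, in chromosome order from top to bottom, for 3aKO and 1KI in normalization 1 and 3bKI in normalization 2. The points of the 3 mutants lie together for Sugct 1421422_at (-2.86, -2.96 and -2.64) and Yae1d1 1419660_at (1.45, 1.50 and 1.42) and apart for Slc17a1 (0.15, -1.07 and -0.71).

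The other genes around E2f3, which the choice of members did not name, were tested over 344 probe sets of 190 genes within 100 measured genes on either side. Members were taken out because they had shifted, and they hold every call of the array in 3aKO against wt, so the choice fixed the count of 0 there. In 3aKO against wt 0 of the 344 were called by limma in either run. At an unadjusted p under 0.05 were 20 and 17 of the 344, against 3383 and 3382 of all 45037 probe sets, a larger share. In 1KI against wt 1 was called, or 0.291%, and in 3bKI against wt 6, or 1.74%. The shares over all probe sets were 0.16% and 1.18%. The call in 1KI and all but 1 of those in 3bKI were probe sets of a single gene, Sox4. With 1 probe set per gene, adjusted over those genes alone, 0 of these neighbours were called in 1KI against wt and 1 in 3bKI. Against 3aKO 0 were called in 1KI, and 39 in 3bKI, or 11.3% against 7.63% of all. In 1KI against 3aKO 44 of the 344 had an unadjusted p under 0.05, against 5814 of all 45037, about the same share. The median size of a difference was 0.0981 log2 in 3aKO against wt, 0.134 in 1KI and 0.131 in 3bKI, against 0.0843, 0.124 and 0.122 over all probe sets. Members lay out to 89 measured genes from E2f3, and within 50 measured genes 0 probe sets were called in 3aKO against wt in either run.

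The called neighbour nearest to E2f3 was Sox4, a transcription factor of progenitor cells, 3 measured genes before it. Its probe set 1433575_at read 5.56 to 6.35 in wt, up to 6.44 in 3aKO and 7.40 to 10.09 in 1KI in normalization 1. Its normalization 2 values were 5.28 to 6.01 in wt, 5.23 to 6.33 in 3aKO and 7.58 to 8.38 in 3bKI. It rose in both tumours against wt, by 2.63 ± 0.39 in 1KI and 2.40 ± 0.17 in 3bKI (limma's adjusted p = 0.0241 and 0.00024), with every tumour array above every wt array. In 3aKO it differed by 0.34 ± 0.17 (adjusted p = 0.68). All 5 Sox4 probe sets called in 3bKI against wt rose, by 0.87 to 2.40. The other call in 3bKI against wt was Slc17a2 1425034_at, next to Slc17a3, which fell by 0.96 ± 0.20 (adjusted p = 0.0375). Against 3aKO, 3bKI had lower levels of Aldh5a1, a mitochondrial dehydrogenase, by 0.86 ± 0.16 (adjusted p = 0.0163), Adtrp by 0.85 ± 0.19 (adjusted p = 0.0303) and Smim13 by 0.85 ± 0.18 (adjusted p = 0.0253).

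**Figure D4:**
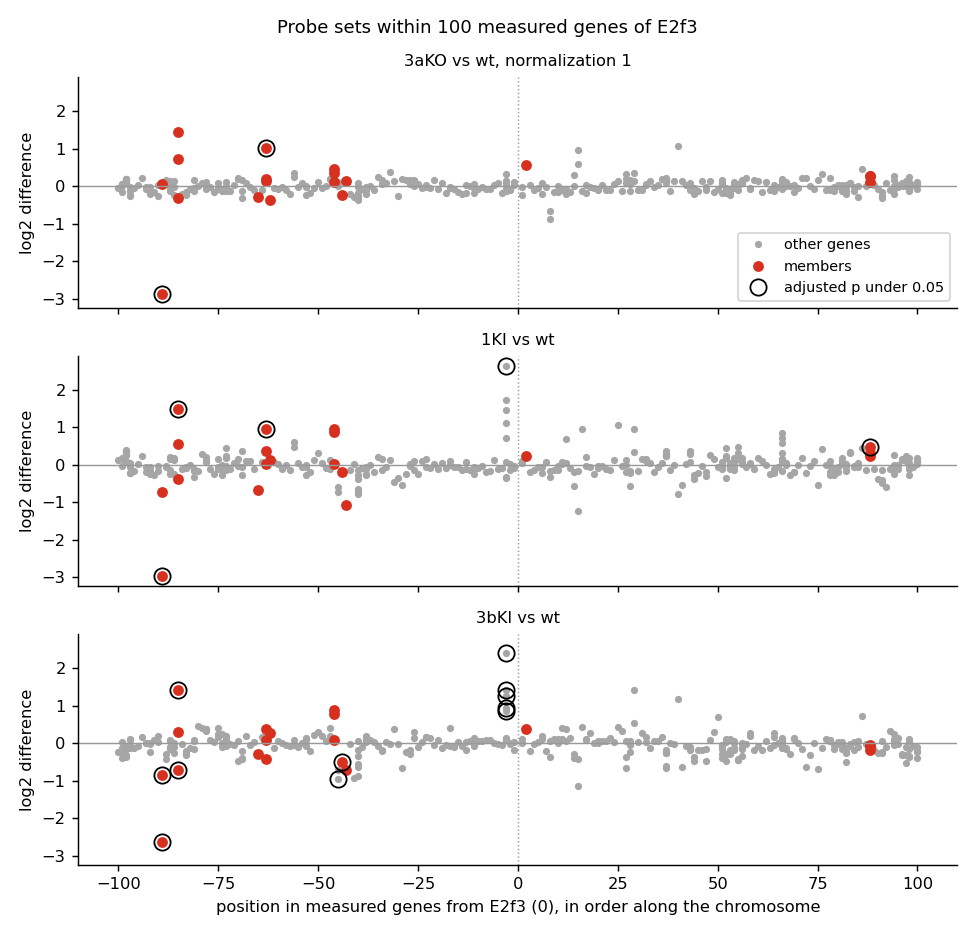
Log2 difference from wt of every probe set within 100 measured genes of E2f3 (horizontal axis, E2f3 at 0) in 3aKO, 1KI and 3bKI, with members in red, other genes in grey and rings at an adjusted p under 0.05. In 3aKO the rings lie on members alone, while in the tumours the column of points 3 measured genes before E2f3 is Sox4.

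Among cell type markers other than those of hepatocytes, only stellate cell and endothelial ones were called in the tumours against wt. Of 10 stellate cell markers 1 rose in 1KI against wt, Pdgfrb by 0.76 ± 0.12 (limma's adjusted p = 0.0276), and 3 rose in 3bKI, among them Col1a1 by 1.21 ± 0.21 (adjusted p = 0.0237). Their mean log2 level was 7.42 to 7.76 in wt, 7.47 to 8.10 in 3aKO and 7.89 to 8.34 in 1KI, and in normalization 2 7.33 to 7.67 in wt and 7.62 to 8.45 in 3bKI. Of 8 endothelial markers Plvap rose in 1KI against wt by 1.00 ± 0.16 (adjusted p = 0.033). No marker of cholangiocytes, macrophages, lymphocytes (T and NK, or B and plasma cells), neutrophils, erythroid cells, kidney or pancreas was called against wt in any mutant. Of 9 macrophage and Kupffer cell markers, 2 lay above 0 in 1KI against wt and 9 in 3bKI, with medians of -0.53 and 0.26. More were called in 3bKI against 3aKO, as were 7.63% of all probe sets. In that comparison Lyz2 of macrophages rose by 1.06 ± 0.26 (adjusted p = 0.0377), Elane of neutrophils by 0.41 ± 0.09 (adjusted p = 0.026) and Cela2a of pancreas by 0.81 ± 0.21 (adjusted p = 0.045). The collagen genes Col1a1, Col1a2 and Col3a1 of the stellate list rose there by 1.15 ± 0.16, 1.15 ± 0.22 and 1.55 ± 0.36 (adjusted p = 0.00736, 0.0181 and 0.0331). The part of these cells in the tumour values of the members was not tested.

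Some of the probe sets were spread widely within wt liver itself. The SD over the 7 wt arrays was 0.81 for Sugct 1421422_at, larger than that of 98.8% of all probe sets, 0.61 for H1f2 1436994_a_at (97.5%), 0.51 for Slc17a1 (96.3%) and 0.47 for Yae1d1 1419660_at (95.6%). The median over all probe sets was 0.18. Jarid2 1450710_at had 0.12, larger than 18.3%. With the Xist level as a covariate, Sugct 1421422_at differed from wt by -2.81 ± 0.32 in 3aKO, Yae1d1 1419660_at by 1.40 ± 0.19 and Zkscan8 1457756_at by 1.03 ± 0.13.

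For each gene, the measured gene most like it was sought by Pearson's correlation of deviations from the group means over the 17 arrays of normalization 1. The arrays share their run and groups, and the values are the highest of all genes, so they are a description. Sugct 1421422_at went best with Zscan12 1451281_at (r = 0.88), a zinc finger gene 70 measured genes before E2f3 on the same chromosome. Zscan12 read 4.84 to 6.11 in wt, 5.66 to 5.93 in 3aKO and 5.51 to 5.90 in 1KI, so it shared the spread of wt and not the low mutant level. Zkscan8 went best with Ninj1 (r = 0.83), 116 measured genes after E2f3. The other 8 went best with genes of other chromosomes: Yae1d1 with Ms4a2 (0.87), Zkscan4 with Ncald (0.85), H3c11 with Timp2 (0.91), H1f2 with Lyzl6 (0.79), Slc17a3 with Bcas1 (0.84), Slc17a1 with Fibin (0.90), Agtr1a with Srrm4 (0.83) and Jarid2 with Minpp1 (0.83). Of the 18193 genes measured, 702 lie on the chromosome of E2f3, and the matches there were not tested against that share.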

How the data were processed

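RNA from 21 livers or liver tumours was measured on Affymetrix mouse arrays. The authors deposited log2 expression values per probe set in 2 separately normalized runs, per the labels; the summary and normalization methods are not given in the sources used here. Precision is limited by how few arrays each group has. Of 45101 probe sets, 64 array controls were left out. Genes were named by GEO's platform annotation, 34945 probe sets having 1 symbol, 932 several and 9160 none. Neighbours and promoter windows came from RefSeq (GRCm38.p6). The members and gene lists were chosen with earlier results of these data known.

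Each comparison was fitted on its 2 groups within 1 run, over all 45037 probe sets, with limma 3.58.1 (lmFit, eBayes) in R 4.3.3, two-sided with Benjamini-Hochberg adjustment, after a check on simulated data. Because the labels do not name separate animals or litters, p-values measure only the spread between these samples. Errors are SD after means and moderated SE after differences. Named were the members, E2f3, called or lowest-p genes of each list, called neighbours within 100 measured genes (up to 10 a comparison), and the gene most like each member. Lists used 1 probe set per gene, the one with the highest mean. Same-numbered arrays of different groups correlated at -0.371 to 0.4 in their deviations, and no comparison had every pair over 0.1, so the numbers were not taken as pairs. Alternatives were quantile normalization, median centring, 1 probe set per gene, leaving out the dimmest 40%, trend and robust eBayes, all 3 groups in 1 fit, a replicate block, Xist as a covariate, other window widths and leaving out arrays.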

Additional observations from a re-analysis of the deposited data

Results flagged for a closer look

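Values of each member or E2f3 probe set in a group of 4 to 7 arrays formed 126 sets. Of these, 4 held an array far from the others by Dixon's criterion, which chance meets in about 1 in 20. The wt and 3aKO arrays enter once per run, so the sets are not independent. Yae1d1 1419660_at read 8.14 in wt replicate 2 in normalization 1, where the next wt array read 7.24, a gap of 0.61 of the range. The same array read 8.04 in normalization 2, with the next at 7.12 and a gap of 0.72 of the range. H1f2 1438204_at read 6.12 in 1KI replicate 2, with the next at 5.63, and 5.93 in wt replicate 6 in normalization 2, with the next at 5.66.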

How the results depend on the processing

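The 30 member differences without overlap moved by under 1 SD in all 555 alternatives run, and 0 reversed. Much of this was fixed in advance. Trend and robust eBayes, all 3 groups in 1 fit, 1 probe set per gene and leaving out the dimmest 40% change no log2 difference. Leaving out 1 array cannot reverse groups that do not overlap, nor move a difference by 1 SD at these group sizes. The count is therefore no measure of how firm the differences are. The counts of called probe sets within 100 measured genes of E2f3, members included, moved more. In the order 3aKO against wt (normalization 1, then 2), 1KI against wt, 3bKI against wt, 1KI against 3aKO and 3bKI against 3aKO, they were 2, 3, 5, 11, 0 and 44. With 1 probe set per gene the first 4 were 0, 0, 1 and 4, and the last was 20. Without the dimmest 40% both 3aKO counts were 1, and trend and robust eBayes gave 1 in normalization 1. All 3 groups in 1 fit gave 16 in 1KI and 21 in 3bKI against wt and 2 in 1KI against 3aKO. Quantile normalization gave 23 in 3bKI against 3aKO. With the replicate block the counts against wt were 1 and 1 in 3aKO, 0 in 1KI and 30 in 3bKI, and 4 in 3bKI against 3aKO, where the calls among members went from 5 to 0. There all 4 same-numbered correlations were above 0 (0.059 to 0.248) and 3 of 4 3bKI arrays matched their own number best, a hint from the data only, since 1 pair missed 0.1. A window of 50 measured genes gave 0, 0, 1 and 7 against wt and 20 in 3bKI against 3aKO, and the whole chromosome gave 24 and 142 in 3bKI against wt and 3aKO. Without 1KI replicates 3 and 4 the count against 3aKO was 1. Over all probe sets calls moved as well. All 3 groups in 1 fit took them from 72 to 647 in 1KI and from 530 to 1723 in 3bKI against wt. The replicate block took them from 72 to 2 in 1KI and from 530 to 1813 in 3bKI against wt. It took them from 3435 to 422 in 3bKI against 3aKO, and gave 3 in both runs of 3aKO against wt. Moves in the tumour comparisons were thus not confined to the neighbourhood. Their cause was not tested, except that narrower windows and 1 probe set per gene test fewer probe sets.

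Leaving out each array in turn gave 0 to 3 in both 3aKO counts, 2 to 7 in 1KI and 6 to 19 in 3bKI against wt, and 0 to 1 in 1KI and 11 to 33 in 3bKI against 3aKO. In normalization 1 the 3aKO count was 0 without wt replicate 3 or 6 or 3aKO replicate 1, 2, 4 or 5, and 1 without wt replicate 1, 4 or 7. In normalization 2 it was 0 without 3aKO replicate 1, 2, 4 or 5. The 1KI count against wt was 2 or 3 without wt replicate 1, 2, 4 or 5 or 1KI replicate 4. The 3bKI count against wt was 6 or 7 without wt replicate 1, 3, 4 or 5 or 3bKI replicate 3 or 4, and 19 without wt replicate 7. In 1KI against 3aKO it was 1 without 1KI replicate 1. Set against 3aKO, in the 3bKI tumours it was 11 to 23 without 3aKO replicate 2, 3, 4 or 5 or 3bKI replicate 2, 3 or 4. Calls over all probe sets moved here too. In 3bKI against wt they went from 530 to 1545 without wt replicate 7 and to 87 without 3bKI replicate 3. In 3bKI against 3aKO they went from 3435 to 1246 without 3aKO replicate 4.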
